A study of Rattus norvegicus with 6 samples.

Results

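The transcripts described here are those of 10 genes of pericellular proteolysis: the secreted metalloproteases Adamts1, Adamts4 and Adamts9, the matrix metalloproteases Mmp2, Mmp9, Mmp14 and Mmp15, and the tissue inhibitors of metalloproteases Timp1, Timp2 and Timp3. They were picked by gene symbol from a deposited table of 32662 rat genes, and each symbol matched 1 row. All 10 were above 0 in at least 1 library, and 7 reached the level needed for a test, which was 1 FPKM (fragments per kilobase of gene, scaled to each library's mapped fragments) or more in at least 3 libraries. Adamts1, Adamts9 and Mmp9 did not reach it. Adamts4 reached it through its fibril libraries alone.

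RNA came from oligodendrocyte precursor cells of Sprague-Dawley rat cerebral cortex, the dividing cells from which myelin-forming oligodendrocytes arise. In both groups the cells were the floating fraction of mixed glia from rats 1 to 2 days old, grown first with 20% fetal bovine serum and then for 4 to 5 days with PDGF and FGF at 10 ng/ml each and 2% B27. The Neurobasal medium also held glutamine, penicillin and streptomycin. One group of 3 libraries is labelled control. The other 3 are from cells kept with preformed fibrils of human alpha-synuclein for 72 hours. No label ties a library to a culture or an animal, so p-values cover only the spread between libraries, which may be technical.

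Metalloproteases of the ADAMTS and MMP families are zinc enzymes made as inactive precursors. Several ADAMTS enzymes, Adamts4 among them, cut the chondroitin sulfate proteoglycans aggrecan, brevican and versican, and Adamts4 is known as a gene of oligodendrocytes. Membrane-type enzymes such as Mmp14 and Mmp15 act at the cell surface, and Mmp14 activates Mmp2 in a complex with Timp2. Timp3 is held in the matrix and is the TIMP that inhibits Adamts4 most strongly.

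Upstream sequences of 3 genes are shown because they belong to the member with the clearest higher values after fibrils (Adamts4), a member with lower values in all 3 fibril libraries (Timp2), and the inhibitor whose group means were closest (Timp1). The RefSeq table of assembly GRCr8 held 7 of the 10 members, and Mmp2, Mmp9 and Mmp14 had no entry. Each line gives the 250 bases before the annotated start of the gene, 5′ to 3′ on the gene's strand, with GC boxes, read on either strand, in capitals.
Adamts4 (chr13:86202761-86203010, plus strand): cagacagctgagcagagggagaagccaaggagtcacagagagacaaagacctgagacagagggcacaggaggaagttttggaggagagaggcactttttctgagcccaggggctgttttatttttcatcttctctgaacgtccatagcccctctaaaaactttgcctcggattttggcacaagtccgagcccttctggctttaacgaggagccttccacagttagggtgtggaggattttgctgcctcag
Timp2 (chr10:104089215-104089464, minus strand): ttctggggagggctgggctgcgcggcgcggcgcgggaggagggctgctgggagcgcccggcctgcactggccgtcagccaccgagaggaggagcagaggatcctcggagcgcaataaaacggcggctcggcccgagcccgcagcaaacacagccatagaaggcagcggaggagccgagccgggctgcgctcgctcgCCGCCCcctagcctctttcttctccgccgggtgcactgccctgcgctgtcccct
Timp1 (chrX:3771123-3771372, minus strand): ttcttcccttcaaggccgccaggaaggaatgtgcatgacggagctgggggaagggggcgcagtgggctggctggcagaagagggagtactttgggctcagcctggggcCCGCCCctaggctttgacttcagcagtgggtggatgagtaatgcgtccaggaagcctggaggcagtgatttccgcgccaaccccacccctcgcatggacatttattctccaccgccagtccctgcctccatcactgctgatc

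Both strands were searched for the GC box (GGGCGG), for the TATA box (TATAAA), for the AP-1 site (TGANTCA, where N is any base) and for the NF-kB consensus. A hit of the NF-kB consensus may overlap a GC box. Adamts4 held 0 matches to any of the 4 in this window, and its GC content was 51.2%. Timp2 and Timp1 each held 1 GC box, at a GC content of 72% and 61.2%. Over all 33469 promoters of the table, 30.5% held a GC box, 12.9% a TATA box, 6.34% an AP-1 match and 6.33% an NF-kB match. The other 4 members with an entry also held a GC box (2 in Adamts1, 1 in Adamts9, 1 in Mmp15 and 3 in Timp3), Adamts1 alone of the 7 held a TATA box, Adamts9 alone an NF-kB match, and 0 of the 7 an AP-1 match. A match describes letters only, and the absence of one says nothing about a factor.

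Libraries of replicate 1 stood apart in both groups. Mitochondrial genes made up 80.3% and 75.6% of their summed FPKM, against 12% to 40.1% in the other 4. The FPKM worth of a single fragment, set to 1 in control replicate 2, was 4 in replicate 1 of the controls, 6.92 in replicate 1 of the fibril group and 0.826 to 1.96 elsewhere. Low values in replicate 1 are therefore the coarsest. Hprt1 and Rps6, which every cell uses, were listed at 0 in all 6 libraries, so a 0 in this table can be a failed estimate.

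Without fibrils the inhibitors Timp2 and Timp3 and 1 membrane protease dominated. Mmp15 had the highest control median (113 FPKM), followed by Timp2 (60 FPKM) and Timp3 (32.5 FPKM). These neighbours overlapped across control libraries. Timp1 came next at 2.62 FPKM, below every Timp3 value, and then Mmp14 (2.13 FPKM) and Mmp2 (1.68 FPKM), which overlapped. Below every Mmp2 value lay Adamts4 (0.219 FPKM), which overlapped with Adamts9 (0.141 FPKM) and Adamts1 (0.063 FPKM). Mmp9 was listed at 0. After fibrils Mmp15, Timp2, Timp3 and Timp1 kept ranks 1 to 4, at medians of 52.8, 34.9, 9.28 and 3.01 FPKM. Adamts4 took rank 5 at 2.41 FPKM, below every fibril value of Timp1 and above every fibril value of Mmp2, while it overlapped with Mmp14. Mmp2, Mmp14 and Mmp9 followed at 1.08, 0.805 and 0.703 FPKM and overlapped, as did Adamts1 and Adamts9 at 0.124 and 0.112 FPKM.

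**Figure D1:**
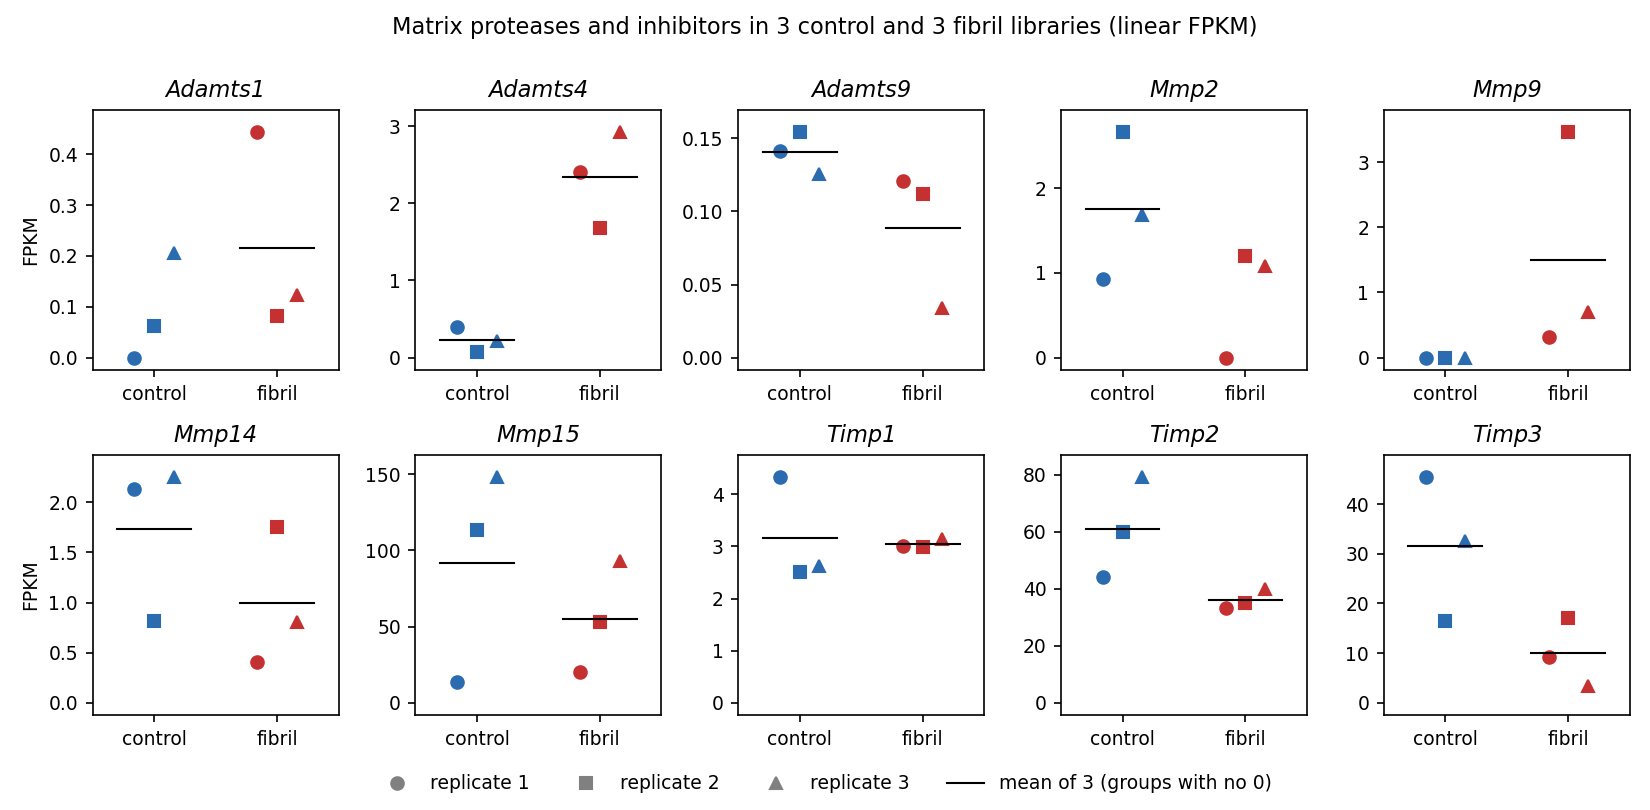
FPKM (linear axes, a separate scale for each gene) of the 10 genes in each control (blue) and fibril (red) library, with marker shape by replicate number and a line at the mean of groups that hold no 0. Adamts4 lies at 0.0732 to 0.401 FPKM in controls and 1.69 to 2.92 FPKM in the fibril group, and every fibril value of Timp2 lies below its control values.

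The comparison of fibril with control libraries asks which of these transcripts differ in precursor cells that have met alpha-synuclein fibrils. Adamts4 was higher in all 3 fibril libraries, at 10.1 times the control mean. Timp2 and Timp3 had lower means, by 1.7 and 3.17 times, and Timp1 differed little. Mmp9 was listed at 0 in all controls and above 0 in all fibril libraries. By limma on log2(FPKM + 1) over 10766 genes, 0 of the 7 tested members passed an adjusted p of 0.05 in either direction (percent called over all genes, 0 higher and 0 lower). With the replicate number as a block the count was also 0, where 0.111% of all genes were called higher and 0 lower. Timp3 and Adamts4 had an unadjusted limma p under 0.05, as 4.02% of all genes had. Nothing is read from that count, since Adamts4 passed the filter through its fibril libraries alone.

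Adamts4, the aggrecan- and brevican-cutting protease (chromosome 13, 89622631 to 89634419 in the deposited table), had 0.401, 0.0732 and 0.219 FPKM in control replicates 1, 2 and 3. It had 2.41, 1.69 and 2.92 FPKM in fibril replicates 1, 2 and 3. The groups did not overlap, and the lowest fibril value was above the highest control value. Of the 7 tested members it alone showed such a separation upwards, beside 4.24% of all tested genes, and having entered the test through its fibril values alone it had to differ. Group means were 0.231 ± 0.164 FPKM and 2.34 ± 0.621 FPKM (SD, n = 3 each). The log2 difference was 1.43 (SE 0.36, 95% interval 0.61 to 2.25), with a limma adjusted p of 0.717 and an unadjusted p of 0.00346. With the replicate block the adjusted p was 0.274.

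The Adamts4 difference was similar within each replicate number, at 1.28, 1.32 and 1.69 on the log2 scale. Being higher in 3 of 3 follows from groups that do not overlap, under any pairing of the libraries. Scaled to equal totals without mitochondrial genes, its log2 difference was 1.31. That scaling moved the median of all tested genes from -0.04 to -0.30, so Adamts4 lay 1.47 above the median gene as deposited and 1.62 above it when rescaled. Few fragments stand behind the control values. In fragments rather than FPKM, Adamts4 had 1.37 and 3.62 times as many in control replicates 1 and 3 as in control replicate 2. The fibril replicates had 4.76, 17.6 and 20.4 times as many. The log2 difference was 2.98 with a pseudocount of 0.1 and 0.49 with a pseudocount of 5.

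The other ADAMTS members stayed near the limit of what the libraries resolve. Adamts1, a secreted protease that also cuts aggrecan and versican (chromosome 11, 25342125 to 25350974), had 0, 0.063 and 0.206 FPKM in the control libraries, compared with 0.443, 0.0822 and 0.124 FPKM with fibrils. The groups overlapped. Relative to control replicate 2, these values correspond to 3.95 times as many fragments in control replicate 3 and to 1.02, 0.995 and 1.00 times as many in fibril replicates 1, 2 and 3, so its highest FPKM, in fibril replicate 1, rests on as few fragments as the values in replicate 2. Adamts9, a protease of versican (chromosome 4, 124660261 to 124858250), had 0.141, 0.154 and 0.126 FPKM against 0.121, 0.112 and 0.0336 FPKM. Its fibril values were all below its control values as deposited, but overlapped them when scaled without mitochondrial genes. Neither gene was tested.

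Mmp9, the secreted gelatinase of type IV collagen (chromosome 3, 161413297 to 161421520), was listed at 0 in all 3 controls. With fibrils it had 0.313, 3.46 and 0.703 FPKM in replicates 1, 2 and 3. Fibril replicate 2 held most of the signal, and no fold is given against libraries listed at 0. Only 1 library reached 1 FPKM, so Mmp9 was not tested. Mmp2, the other gelatinase (chromosome 19, 15542764 to 15570611), went the other way in its values, with 0.933, 2.66 and 1.68 FPKM in the control libraries, compared with 0, 1.2 and 1.08 FPKM with fibrils. It was lower in 3 of 3 replicate numbers while the groups overlapped. Its log2 difference of -0.69 (SE 0.46, 95% interval -1.72 to 0.35) did not pass (limma adjusted p = 0.96).

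Mmp15, a membrane-type protease with the highest median among the 7 proteases in both groups (chromosome 19, 10079764 to 10101451), had 13.5, 113 and 148 FPKM in controls. It had 20, 52.8 and 93.1 FPKM with fibrils. Both replicate 1 libraries were far below the others of their group, and the groups overlapped. The difference was 0.54 within replicate 1 and -1.09 and -0.66 within replicates 2 and 3. The limma estimate of -0.40 (SE 0.91, 95% interval -2.46 to 1.65; adjusted p = 0.974) turned to 0.03 without control replicate 2, to 0.22 without control replicate 3 and to 0.18 without fibril replicate 1. Rescaling without mitochondrial genes left replicate 1 low, at 30.9 and 42.9 on that scale in control and fibril, against 157 to 521 in the other 4 libraries. Mmp14, the membrane-type activator of Mmp2 (chromosome 15, 33074440 to 33083655), had 2.13, 0.821 and 2.25 FPKM against 0.409, 1.76 and 0.805 FPKM. It was lower in replicates 1 and 3 and higher in replicate 2, with a log2 difference of -0.47 (95% interval -1.44 to 0.51; limma adjusted p = 0.96).

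Timp3, the matrix-bound inhibitor (chromosome 7, in a range shared with another row, 23403890 to 23808602), had 45.4, 16.5 and 32.5 FPKM in the control libraries, compared with 9.28, 17.1 and 3.46 FPKM with fibrils. Fibril replicates 1 and 3 were below every control, and fibril replicate 2 equalled its control within 0.04 on the log2 scale. The within-replicate differences were -2.17, 0.04 and -2.91. Group means were 31.5 ± 14.5 and 9.94 ± 6.83 FPKM (SD, n = 3 each). The log2 difference of -1.68 (SE 0.59, 95% interval -3.02 to -0.34) had an unadjusted limma p of 0.0199 and an adjusted p of 0.96, or 0.44 with the replicate block.

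Timp2, the secreted inhibitor that also takes part in Mmp2 activation (chromosome 10, in a shared range, 107338464 to 107386072), had 44, 60 and 79 FPKM in controls. It had 33.1, 34.9 and 39.7 FPKM with fibrils. Every fibril value was below every control value, which held for 5.3% of all tested genes and for 1 of the 7 tested members. Scaled without mitochondrial genes the groups overlapped, at 101, 183 and 278 against 70.9, 103 and 80.6. Group means as deposited were 61 ± 17.5 and 35.9 ± 3.44 FPKM (SD, n = 3 each). The log2 difference was -0.71 (SE 0.39, 95% interval -1.60 to 0.17; limma adjusted p = 0.96), and -0.68 relative to the median gene, or -0.72 relative to it after rescaling. Timp2 was lower in 3 of 3 replicate numbers (-0.40, -0.77 and -0.97), which follows from groups that do not overlap as deposited.

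Timp1, the inhibitor known for its induction in injured and inflamed tissue (chromosome X, in a shared range, 1321314 to 1390873), had 4.32, 2.52 and 2.62 FPKM in the control libraries, compared with 3.01, 2.98 and 3.13 FPKM with fibrils. The fibril values lay inside the control range. The log2 difference was -0.01 with a 95% interval of -0.85 to 0.83 (limma adjusted p = 1.00), so a difference of that size in either direction was not resolved. Its sign depended on the setting, with 0.20 under quantile normalization and 0.18 without control replicate 1. The deposited table gives other genes the same coordinate range as these inhibitors: Syn1, Araf and LOC102555453 with Timp1, Syn3 with Timp3, and Cep295nl with Timp2. The synapsin genes contain the TIMP genes in their introns on the opposite strand. Whether counting used strand is not given in the sources used here, so fragments of Syn1 (11.2 to 35.4 FPKM) and Timp1 may not be fully separated. Syn3 was at most 1.76 FPKM and Cep295nl at most 0.33 FPKM.

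**Figure D2:**
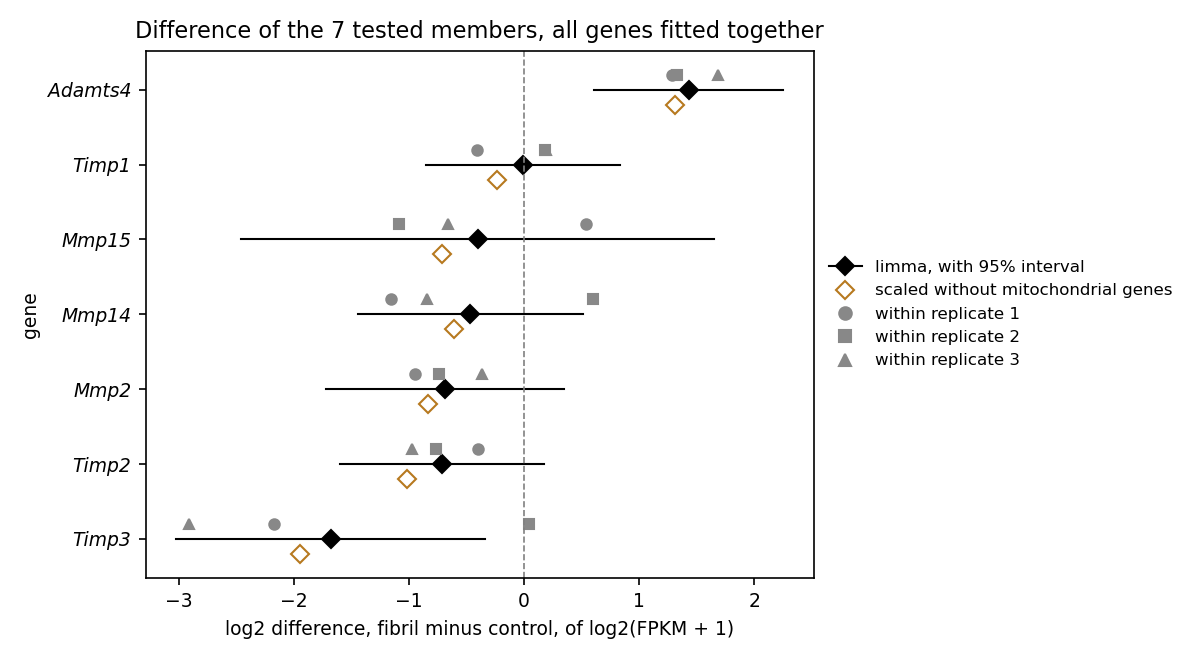
Log2 difference (fibril minus control, log2(FPKM + 1)) of the 7 tested genes: black diamonds with 95% intervals are the limma fit over 6 libraries, open diamonds the values scaled without mitochondrial genes, and grey markers the differences within each replicate number. Adamts4 lies at 1.43 and Timp3 at -1.68, while the interval of Mmp15 runs from -2.46 to 1.65.

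Ratios within a library do not depend on its scaling. Timp3 exceeded Adamts4 by 113, 226 and 148 times in control replicates 1, 2 and 3. In the fibril replicates the ratio was 3.85, 10.1 and 1.18. The groups were separated by more than 10 times at their closest values, and fibril replicate 3 had the closest values of both genes. Timp3 overlapped between the groups and Adamts4 had to differ, so this separation is not independent of the Adamts4 difference. The control ratios rest on the few Adamts4 fragments of those libraries. Summed over Timp1, Timp2 and Timp3, the inhibitors had 93.7, 79 and 114 FPKM in the control libraries, compared with 45.4, 54.9 and 46.3 FPKM with fibrils. The sums did not overlap as deposited, nor when scaled without mitochondrial genes (215, 242 and 402 against 97.3, 163 and 94). Timp1 made up 4.61%, 3.18% and 2.30% of the sum in controls and 6.64%, 5.42% and 6.77% with fibrils. Timp2 held the largest share in every library except control replicate 1, where Timp3 had 48.4% and Timp2 47%. Mmp15 made up 78.9% to 97.1% of the summed FPKM of the 7 proteases across the 6 libraries.

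**Figure D3:**
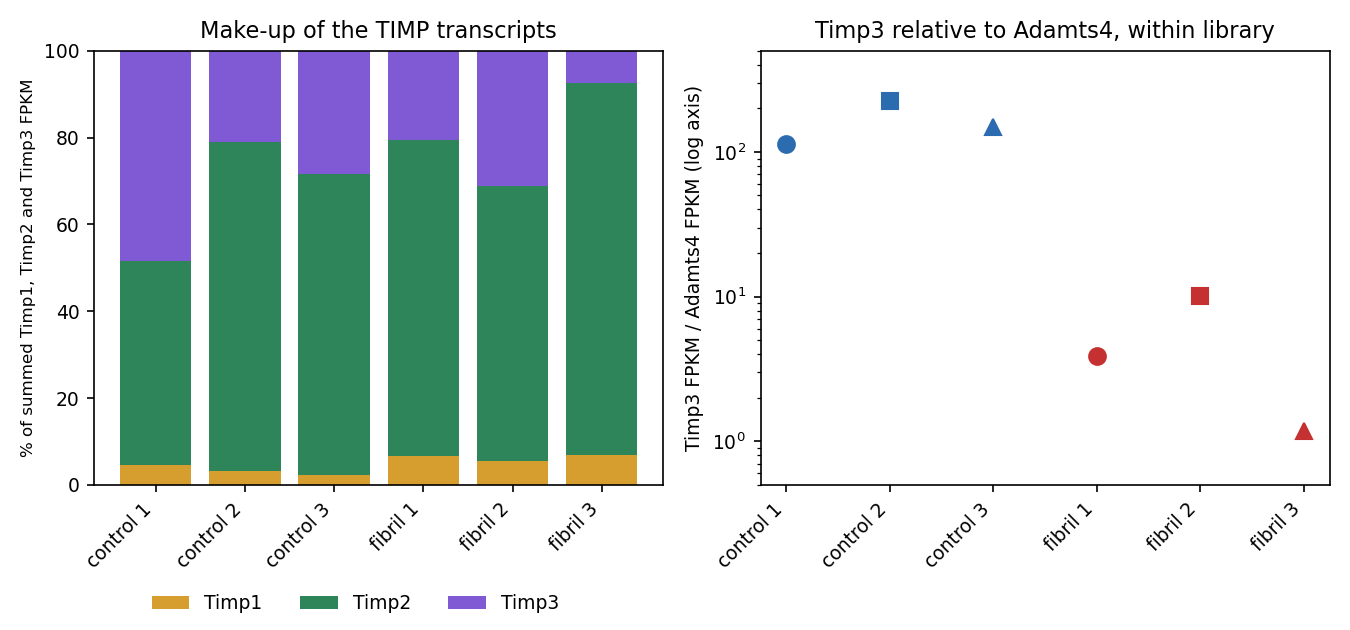
Left, the share of Timp1, Timp2 and Timp3 in their summed FPKM (stacked bars, percent) in each of the 6 libraries. Right, the ratio of Timp3 to Adamts4 FPKM within each library (log axis), at 113 to 226 in controls and 1.18 to 10.1 in fibril libraries.

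Among related genes of the protease system, 0 passed in the fit without a block. Of 18 other MMP genes, 17 had a row, 7 of those were at 0 in every library and 3 were tested. All 3 had negative differences (median -0.57, beside -0.04 over all tested genes). That median ranged from -0.13 without fibril replicate 1 to -1.34 without control replicate 1, was -0.22 without control replicate 3 and was -0.02 with no filter on low values. Mmp16, a membrane-type protease with the highest mean of this list, had 31.1, 58.7 and 87.4 FPKM in the control libraries, compared with 20, 35.9 and 16.4 FPKM with fibrils (log2 difference -1.22, limma adjusted p = 0.96). Mmp24, another membrane-type enzyme, had 1.99, 13.4 and 14.5 against 2.11, 7.34 and 6.78 FPKM.

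Among 22 other ADAMTS and ADAMTS-like genes, 3 were tested, all negative (median -0.23, from -0.12 without control replicate 2 to -0.68 without control replicate 1). Adamts10 had the highest mean of these, with 2.90, 6.14 and 4.16 FPKM against 3.63, 5.6 and 2.01 FPKM. Adamts20 had 2.31, 3.39 and 3.17 against 2.03, 2.16 and 0.141 FPKM. Adamts20 was lower without overlap (5.3% of all tested genes), and the groups overlapped for the other two. The difference between Adamts4 and these genes was not tested.

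The related ADAM proteases release surface proteins from the membrane. Of 11 genes 9 were tested, 7 were negative and the median was -0.85 (from -0.55 without fibril replicate 3 to -1.09 without fibril replicate 2). Adam9 had 41.1, 36.8 and 60.3 FPKM in the control libraries, compared with 26.8, 32 and 15.9 FPKM with fibrils, and Adam10, the main constitutive sheddase, 14.3, 15.8 and 24.8 against 14, 14.1 and 4.05 FPKM. For both genes every fibril value was below every control value as deposited, 2 of the 9 tested genes of the list, beside 5.3% of all tested genes. The closest Adam10 values were 14.3 FPKM in controls and 14.1 FPKM with fibrils. Scaled without mitochondrial genes, the groups overlapped for both genes. Adam12 had 4.21, 15 and 21.9 against 2.64, 4.91 and 0.647 FPKM (log2 difference -1.92, limma unadjusted p = 0.0183, adjusted p = 0.96). Fibril replicate 3 was the lowest library for all 3 genes.

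Of 10 other inhibitor genes 6 were tested, 0 were called, 5 were negative and 1, Serpini1, was positive (0.50). The median was -0.54, from -0.24 without fibril replicate 1 to -0.93 without control replicate 1. Serpine2, encoding protease nexin 1, was the most abundant at 197, 403 and 468 FPKM against 154, 258 and 409 FPKM. Timp4 had 3.81, 13 and 7.85 FPKM against 1.19, 5.53 and 9 FPKM. Among 5 tested genes that activate these proteases 2 were positive (median -0.21, or 0.45 over those with a mean of at least 5 FPKM, and from 0.04 without control replicate 3 to -0.47 without control replicate 1). Furin, the convertase that removes the propeptide of membrane-type MMPs and of ADAMTS enzymes, had 2, 5.76 and 6.67 against 2.52, 4.46 and 4.22 FPKM (outside the naming rule). Bsg, which encodes an inducer of MMPs, had 49.3, 191 and 186 against 59.9, 164 and 465 FPKM.

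Of 21 substrate genes, 12 were tested, 11 were negative and 0 had groups that did not overlap. The median was -0.54, beside -0.04 over all tested genes with every library kept. It was -0.04 without control replicate 3 and -1.03 without control replicate 1. Bcan, encoding the brevican that Adamts4 cuts, was the exception in sign, with 14, 120 and 190 FPKM in the control libraries, compared with 18.1, 119 and 212 FPKM with fibrils (log2 difference 0.17, limma adjusted p = 0.996). Ncan, encoding neurocan, had 14.2, 69.1 and 103 against 9.43, 34.8 and 9.76 FPKM (log2 difference -1.60, adjusted p = 0.96). Acan, encoding aggrecan, had 1.59, 2.98 and 12.1 against 0.304, 2.36 and 2.77 FPKM. The endocytic receptor gene Lrp1, whose product clears several of these proteases and inhibitors, had 9.75, 23.2 and 59.6 against 4.75, 25.4 and 11.1 FPKM.

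Of 12 genes of cytokines and their receptors that regulate such proteases in other settings, 4 were tested. Il1b, encoding interleukin-1 beta, had 0, 0.216 and 0 FPKM in the control libraries, compared with 13.3, 56.9 and 11.2 FPKM with fibrils. By limma its adjusted p was 0.115, and 0.0267 with the replicate block, under which it was the 1 called gene among these 4 (0.111% of all genes). It entered the test through its fibril values alone, and with the block and rescaling without mitochondrial genes the calls over all genes went from 12 to 1. Il1a, outside the naming rule, was listed at 0 in controls and had 3.33, 21 and 0.957 FPKM. Tnf was listed at 0 in all 6 libraries (also outside the rule). Fibril replicate 2 had the highest Mmp9, Il1b and Il1a values.

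Cell type markers varied along with some of these values. In bulk RNA, more cells of a type and more RNA per cell cannot be told apart. The summed FPKM of 10 oligodendrocyte markers, led by Cnp and Mbp, was 786, 322 and 480 in control replicates 1, 2 and 3 and 2651, 2180 and 3987 in fibril replicates 1, 2 and 3. Adamts4 had the same order of libraries within each group, highest in control replicate 1 and fibril replicate 3 and lowest in replicate 2 of both. The control order rests on few Adamts4 fragments. In fragments, control replicate 3 was the highest control, at 3.62 times control replicate 2 against 1.37 times in control replicate 1. Mbp, encoding myelin basic protein, had 68.3, 58.5 and 68.4 FPKM against 886, 992 and 1168 FPKM. All 8 tested oligodendrocyte markers had positive differences, 7 with no overlap between the groups (percent of all tested genes, 4.24). Their part in the Adamts4 difference was not tested.

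The 11 microglia and macrophage markers with a row summed to 8.76, 46.3 and 2 FPKM in the control libraries, compared with 13.5, 62 and 36.4 FPKM with fibrils, so these sums overlapped. Cd68 had 6.31, 7.52 and 0.302 FPKM against 7.56, 14.3 and 5.56 FPKM, and Tyrobp, an adaptor of myeloid receptors, 0, 4.48 and 0 against 1.93, 18.7 and 8.76 FPKM. Cx3cr1, the fractalkine receptor of microglia, was at 0 in all 3 fibril libraries, but also in control replicates 1 and 3. Only control replicate 2 listed it above 0, at 0.8 FPKM. Of the 7 tested markers 5 had positive differences and 1, Cd14, was higher without overlap, beside 4.24% of all tested genes. Cd14 entered the test through its fibril values alone, so its groups had to separate. Of 5 neutrophil markers, another source of Mmp9, 4 were at 0 throughout and S100a8 had 7.05 FPKM in fibril replicate 2 only, the library with the highest Mmp9. The part of these cells in the Mmp9 values was not tested.

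For the inhibitors, the 10 astrocyte markers, led by Aldoc, summed to 206, 211 and 225 FPKM in the control libraries, compared with 121, 117 and 270 FPKM with fibrils. Of the 9 tested astrocyte markers 7 had negative differences (median -1.36), 3 were lower without overlap (5.3% of all tested genes) and 1, Gfap, was higher without overlap (4.24%). Gfap had 0.643, 0.370 and 0.733 FPKM against 3.69, 6.20 and 24.8 FPKM. Gfap entered the test through its fibril values alone, so its groups had to separate. Slc4a4, 1 of the 3 lower markers, entered through its control values alone, so its groups had to separate as well. Aldoc made up most of the sum in fibril replicate 3, with 92.8, 66.6 and 77.4 FPKM against 69.7, 68.2 and 181 FPKM. The 7 precursor markers with a row, led by Olig1 and Olig2, were present in every library and summed to 1592, 1464 and 2392 FPKM in the control libraries, compared with 1180, 1318 and 1382 FPKM with fibrils, lower in all 3 fibril libraries. Of the 7 tested precursor markers 6 had negative differences and 1, Sox10, was positive (0.32). For 0 of the 7 did the groups separate, beside 5.3% of all tested genes lower without overlap. The closest sums were 1464 FPKM in controls and 1382 FPKM with fibrils. Timp2, like the summed precursor markers, was lower without overlap as deposited. Neuron markers summed to 601, 273 and 377 FPKM against 398, 289 and 111 FPKM, and these sums overlapped. All 7 tested neuron markers had negative differences (median -0.62), and 3 were lower without overlap (5.3% of all tested genes). Fibroblast and mural markers, from cells rich in Mmp2, Mmp14 and Timp1, summed to at most 0.877 FPKM, and endothelial markers to at most 0.53 FPKM. The part of astrocytes, precursors and neurons in the TIMP values was not tested.

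**Figure D4:**
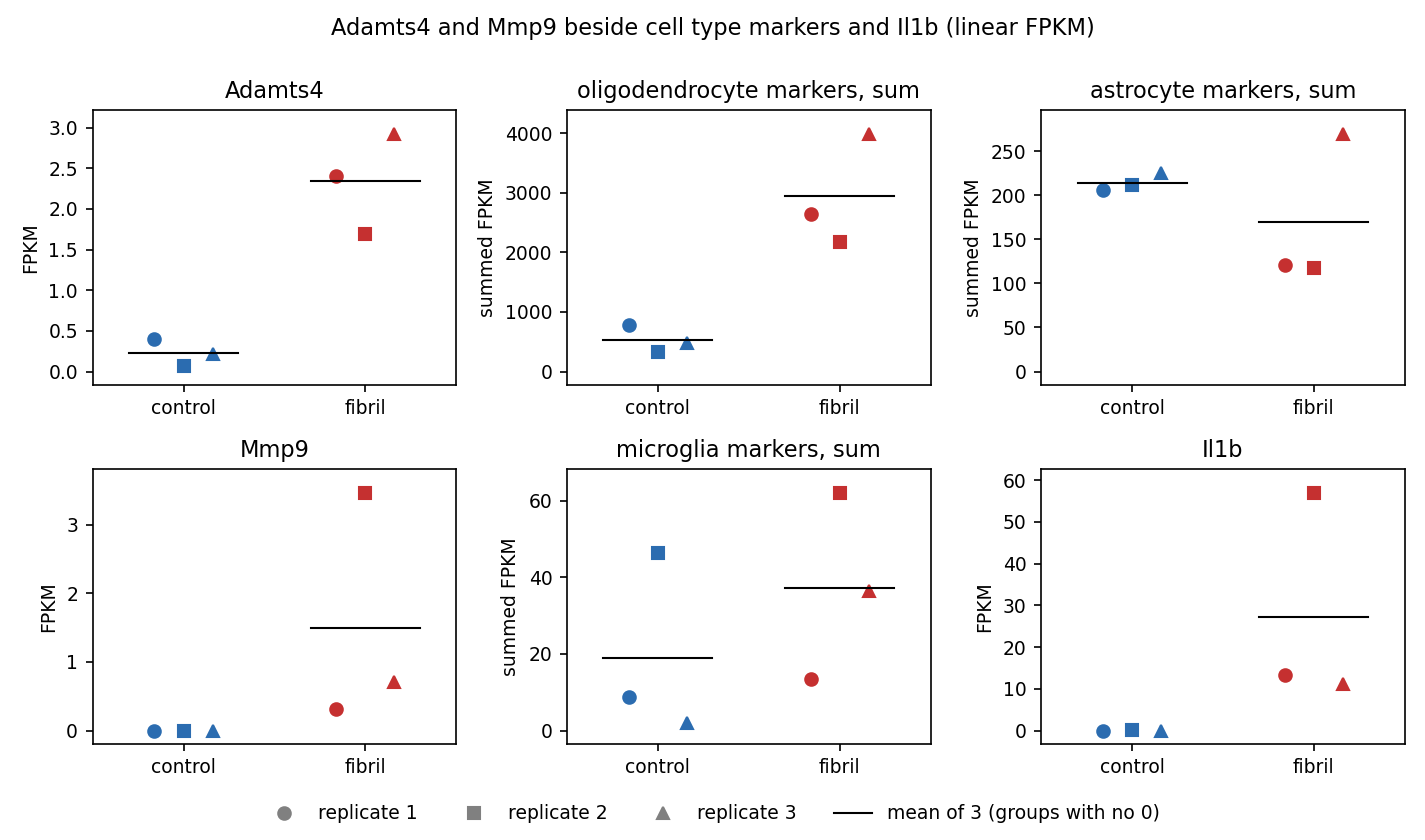
FPKM of Adamts4, Mmp9 and Il1b and summed FPKM of oligodendrocyte, astrocyte and microglia markers (linear axes) in the 3 control (blue) and 3 fibril (red) libraries, marker shape by replicate number, with a line at the mean of groups that hold no 0. The oligodendrocyte sum lies at 322 to 786 in controls and 2180 to 3987 with fibrils, and fibril replicate 2 is highest for Mmp9, Il1b and the microglia sum. Control replicate 2 has the next highest microglia sum (46.3), with Mmp9 listed at 0.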

How the data were processed

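RNA from 3 control and 3 fibril samples was measured. The authors deposited 1 FPKM column per library, per the file headers, with 32662 genes. The submitters' processing notes list Trimmomatic and FastQC with no version. For the aligner, quantifier, strand setting and build, the sources used here give nothing. Printed gene coordinates are those of the deposited table. Libraries were prepared with a strand-specific kit (Agilent SureSelect), per the labels' protocols. FPKM are not counts, so depth is unknown and count models were not used. How much FPKM a fragment was worth was taken from the most frequent ratio between pairs of libraries over genes below 1 FPKM (tolerance 0.03 on the log2 scale).

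A value of at least 1 FPKM in 3 or more libraries was required, which 10766 genes met. Their log2(FPKM + 1) values were fitted with limma 3.58.1 in R 4.3.3 (mean-variance trend, two-sided, Benjamini-Hochberg over all tested genes, threshold 0.05). Fold changes on this scale understate the change of low genes. An exact permutation test of 3 against 3 cannot go below p = 0.1. The fit was checked on simulated data. Same-numbered libraries correlated in their deviations from group means at 0.747, 0.364 and 0.216 for replicates 1, 2 and 3, all above 0.1, so the replicate numbers were treated as pairs in a block fit. The labels state no pairing, and control 3 with fibril 2 (0.5) and control 2 with fibril 3 (0.433) correlated more than their own numbers.

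The members and gene lists were chosen with earlier results of these data known, and within-library ratios and sums were chosen after the values were seen. Named genes were the 10 members, up to 4 genes of each related list with the smallest p and the 2 with the highest mean, the leading and near-0 markers, and the 5 genes most like Adamts4, of which 1 is not reported here. Other names fall outside that rule.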

Additional observations from a re-analysis of the deposited data

How the results depend on the processing

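For the 7 tested members, 95 of 101 log2 differences from other settings kept their sign, and 0 passed the threshold. The replicate block and the changes of filter leave each log2 difference as it is, so they could not change a sign. The count of 95 includes them. Adamts4 ranged from 0.49 to 2.98 (adjusted p 0.274 to 1.00), Timp3 from -2.15 to -1.14, Timp2 from -1.02 to -0.51, Mmp2 from -1.69 to -0.23 and Mmp14 from -0.83 to -0.12. The 6 changes of sign were in genes far from the threshold. Timp1 (-0.01) was at 0.20 under quantile normalization, 0.18 with replicates 2 and 3 only and 0.18 without control replicate 1, and leaving out each library gave -0.12 to 0.18. Mmp15 (-0.40) was at 0.03, 0.22 and 0.18 without control replicate 2, control replicate 3 and fibril replicate 1, and leaving out each library gave -1.46 to 0.22. The cause was not tested. The filter at a mean of 5 FPKM kept only Mmp15, Timp2 and Timp3.

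Over all genes limma called 0 higher and 0 lower without a block, where 433 had an unadjusted p under 0.05. The replicate block gave 12 higher and 0 lower, and the replicate block with scaling to equal totals without mitochondrial genes gave 1 higher. Leaving out each library gave 0 to 3 higher (3 without fibril replicate 3) and 0 lower. In every setting run, 0 members were called, so the block changed no call of a member. Of 119 list medians under other settings, 86 moved by less than the spread between replicate numbers and 33 by more. Medians under the replicate block alone could not move, and the 86 include them. Few fragments stand behind Adamts1 and the control values of Adamts4.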

Other observations

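Over the 6 libraries, genes among those with the highest Pearson correlation with Adamts4 on log2(FPKM + 1) were Mk1 (0.998), Cdk18 (0.996), Oard1 (0.993) and Ctbs (0.989). The points fall into 2 groups, so these values describe mainly the difference between groups, and no test was made. Cdk18, encoding a cyclin-dependent kinase of the PCTAIRE family, had 0.629, 0.308 and 0.346 FPKM in the control libraries, compared with 6.22, 4.57 and 8.85 FPKM in the fibril group. Ctbs, encoding a lysosomal chitobiase, had 0.731, 0.549 and 0.673 against 1.89, 1.31 and 1.80 FPKM. Cdk18 and Ctbs entered the test through their fibril values alone, so their groups had to separate. Their order over libraries follows from the choice by correlation and is no separate result. By limma 0 of the 4 passed (adjusted p 0.224 to 0.96), and 0 with the replicate block (0.0776 to 0.506).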
